A study of Mus musculus with 8 samples.

Results

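The genes described here encode parts of the lysosome and of the autophagy machinery that feeds it, in livers with and without the transcription factor XBP1. They were chosen by symbol from a list of 36 genes: 1 regulator, 4 membrane proteins, 8 proteases, 5 glycosidases, 6 lipid handling genes, progranulin, 5 autophagy adaptor and ATG8 family genes, and 6 autophagy core factors. Of these, 35 had a row of their own among the 22923 symbols measured, and Glb1 appeared only in an entry joined with Tmppe, which is given separately and left out of counts and medians of expression values (Glb1 is counted among the 36 where promoters and gene positions are described). All 35 passed the filter on low values, which kept the 10351 genes that reached 1 RPKM in any group (RPKM corrects mapped reads for the length of the transcript and the size of the library).

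The lysosome is an acidic compartment in which proteases, glycosidases and lipases take apart material delivered by endocytosis and autophagy. In autophagy, a double membrane studded with lipid-linked ATG8 proteins (the LC3 and GABARAP families) closes around cytoplasm and fuses with the lysosome. TFEB is a transcription factor that binds E-box elements in promoters of many lysosomal and autophagy genes. XBP1 activates genes of the unfolded protein response and is made after the endoplasmic reticulum sensor IRE1 splices its messenger RNA, and lysosomal enzymes begin their life in that same compartment.

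Livers came from C57BL/6 mice labelled Xbp1flox (flox controls) or Xbp1-/- (deficient in the liver, called knockout here), kept for 4 weeks on chow or on a high-fat diet to which an equivalent of high-fructose corn syrup was added. The labels give no age, no sex and not the driver of the deletion. Each group of 4 mice was pooled into 2 libraries, and the files used here give 1 value per gene and group, so no difference has a replicate check or a test and the spread between libraries is unknown. Values run throughout in the order flox chow, flox high fat, knockout chow, knockout high fat. Changes are log2((a + 1)/(b + 1)) of RPKM. A gene is said to rise or fall at a log2 change of at least 1 in size, which is 2-fold on that scale.

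Xbp1 stood at 112, 90.7, 44.2 and 34.1 RPKM, lower in both knockout groups. Among hepatocyte markers, Ttr, the gene of transthyretin, stood between 2904 and 5347 RPKM, while Alb, which encodes albumin, stood at 0 in every group and may be a failed estimate. The 10 hepatocyte markers summed to 23914, 22453, 15458 and 13756 RPKM, with both knockout groups below both flox groups. Apoa1 led the sum, from 12127 RPKM in flox chow to 4793 RPKM in knockout high fat. Knockout changes on chow and high fat were -0.73 and -1.23 for Apoa1 and -1.20 and -1.63 for Cyp2e1. Pck1 alone was above 0 on chow (0.75). Serpina1c was at 0 in both flox groups and in knockout chow. Of the 8 markers compared, 1 fell on chow and 3 on the high-fat diet in knockout against flox livers and 0 rose. Of all genes 1.37% fell on chow and 1.86% on the high-fat diet. The medians of the 8 markers were -0.34 and -0.68, beside -0.016 and -0.13 for all genes. A part of hepatocyte content in the knockout differences below was not tested. None of the 35 genes was listed at 0. Deposited values summed to between 367414 and 513694 RPKM per group, and these 35 genes made up between 0.496% and 0.595% of the sums. Whole liver was measured, so fewer cells of a type and less RNA per cell cannot be told apart.

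Lysosomal and autophagy genes varied between the groups about as much as all genes did. The highest of the 4 levels was a median of 1.32 times the lowest, beside 1.36 times for all genes. For 25 of 35 the highest of the 4 levels was under 1.5 times the lowest, a share of 71.4% beside 67.1% of 10319 genes listed above 0 in all groups. For 3 of 35, Lamp1, Cd63 and Ctss, it was at least 2 times the lowest, a share of 8.57% beside 10.8% of all genes. The median RNA level of the 35 genes was 24.3, 29.9, 28.5 and 33.5 RPKM, above the median of all genes kept (between 5.41 and 6.05 RPKM).

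**Figure D1:**
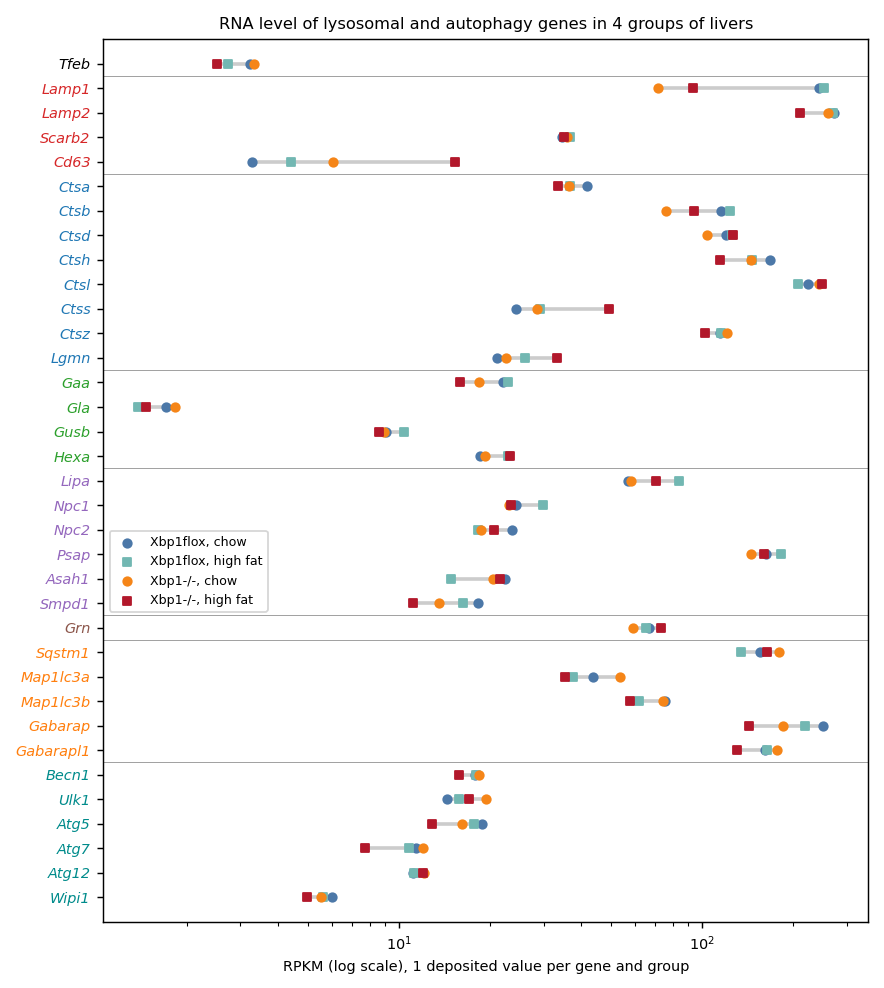
RNA level (RPKM, log axis) of each of the 35 genes, 1 deposited value per group, with gene names coloured by subclass and a grey bar from the lowest to the highest group. The widest bars are those of Cd63 (3.29 to 15.3 RPKM), Lamp1 (71.4 to 252 RPKM) and Ctss (24.3 to 49.4 RPKM), while Scarb2 stayed between 34.4 and 36.6 RPKM.

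On chow, 1 of the 35 genes fell in knockout against flox livers and 0 rose, where 1.37% of 10322 genes fell and 0.252% rose. On the high-fat diet 1 fell and 1 rose, where 1.86% of 10327 genes fell and 1.07% rose. The median change of the 35 genes was -0.021 on chow, beside -0.016 for all genes, and -0.13 on the high-fat diet, beside -0.13 for all genes. With a filter of 5 RPKM, which kept 33 of the 35, the high-fat medians were -0.15 and -0.22. The high-fat diet against chow left 0 of 35 past the threshold in flox livers, where 0.213% of 10322 genes rose and 0.426% fell. In knockout livers 1 rose and 0 fell with the diet, where 0.668% of 10328 genes rose and 0.794% fell. The knockout change on the high-fat diet less that on chow was past the threshold for 0 of 35 genes, where 0.659% of 10319 genes were past it on the high side and 0.572% on the low side. These counts are too small to be read against those shares, and each call is of Lamp1 or Cd63. Rescaling the groups without their 50 most abundant genes raised the median of all genes by 0.25 in knockout against flox livers on the high-fat diet, so the sign of a smaller difference below can depend on the scaling.

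The sequence upstream of Lamp1 is shown because Lamp1 was the one gene of the 35 that fell, and because it carries the core of the E-box that TFEB recognises, CACGTG, more often than any other of the 29 genes with a promoter window in the RefSeq table (GRCm38.p6, 250 bases before to 50 after the start). The 250 bases before the RefSeq start lie at chr8:13158911-13159160 on the plus strand and overlap no annotated exon. Capitals mark CACGTG, which reads the same on both strands.
Lamp1: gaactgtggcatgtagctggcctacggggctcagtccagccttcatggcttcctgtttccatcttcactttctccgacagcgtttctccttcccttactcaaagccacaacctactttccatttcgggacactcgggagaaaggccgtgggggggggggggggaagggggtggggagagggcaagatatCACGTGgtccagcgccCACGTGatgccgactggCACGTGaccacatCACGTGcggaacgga

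The 4 copies begin 61, 45, 28 and 15 bases before the start. At least 4 copies, a limit taken from the count in Lamp1 itself, were found in the windows of 6 of 27025 genes in the table, 0.0222%. The core was found in 10 of the 29 genes (34.5%), against 8.09% of all genes in the table: Atg5, Atg7, Ctsa, Ctsd, Ctsl, Gaa, Gla, Glb1, Lamp1 and Lgmn. A longer form that contains this core, TCACGTGA, also the same on both strands, was found in 3 of 29 genes (10.3%), against 1.12% of all. Some other genes are shown as 1 site with its flanks, in capitals the longer form where present and otherwise the core, to compare with Lamp1. These are the genes with the longer form, then Gaa and Atg5, which after Lamp1 had the largest knockout changes on either diet among genes with the core alone. Atg7, Ctsl, Glb1 and Lgmn are not shown.
Ctsd: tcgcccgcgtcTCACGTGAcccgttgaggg
Ctsa: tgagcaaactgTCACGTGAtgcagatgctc
Gla: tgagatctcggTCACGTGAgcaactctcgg
Gaa: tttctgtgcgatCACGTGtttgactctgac
Atg5: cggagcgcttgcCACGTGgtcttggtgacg

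These sites lie at chr7:142387908-142387937 on the minus strand for Ctsd, chr2:164833749-164833778 on the plus strand for Ctsa and chrX:134601182-134601211 on the minus strand for Gla. Those of Gaa and Atg5 lie on the plus strand at chr11:119267811-119267840 and chr10:44268313-44268342. The capitals begin 99, 13, 195, 140 and 14 bases before the start in Ctsd, Ctsa, Gla, Gaa and Atg5. Ctsa has a further copy of the longer form at position 5 after the start, and Gla has one 228 bases before it. The change of Lamp1 is described below. The other 8 genes with the core and a row of their own had a median knockout change of -0.065 on chow (from -0.26 to 0.12) and -0.062 on the high-fat diet (from -0.50 to 0.34). The 19 genes without it had medians of 0.029 and -0.10. A part of these sites or of TFEB in the knockout changes, that of Lamp1 included, was not tested. Searched on both strands, the XBP1-type element TGACGTGG was found in 0 of the 29 windows (0.714% of all genes). The endoplasmic reticulum stress element ERSE, a CCAAT box spaced from CCACG, was also found in 0 of 29 (0.137% of all genes). With shares this low among all genes, 0 of 29 cannot be read as a lack of these elements. Other forms of them were not searched. The core of the antioxidant response element, TGACNNNGC, was found in 6 of 29 (20.7%, against 14.0% of all genes), Ctsd, Ctsz, Hexa, Map1lc3b, Psap and Scarb2. Becn1, Asah1, Map1lc3a, Ctsh, Ctsb, Npc1 and Atg12 have no window in the table.

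The regulator itself was at low RNA levels. Tfeb stood at 3.23, 2.74, 3.32 and 2.52 RPKM, lower on the high-fat diet in both genotypes by less than the threshold (log2 changes of -0.18 and -0.30). Its knockout change was 0.031 on chow and -0.086 on the high-fat diet. Of 9 genes for its relatives and partners, such as Tfe3 and Flcn, 7 were measured and 0 passed the threshold in any comparison.

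Among the 4 membrane proteins, the 2 major glycoproteins that coat the inner face of the lysosome differed in their knockout changes. Lamp1, on mm10 chromosome 8 from 13159161 to 13175338, stood at 243, 252, 71.4 and 93.2 RPKM. Both knockout groups lay far below both flox groups. The knockout level was 29.4% of flox on chow (log2 change -1.75) and 37.0% on the high-fat diet (log2 change -1.42). On chow 0.310% of all genes tested fell as far, and on the high-fat diet 0.600% did. Lamp2, which also carries a splice form that imports cytosolic proteins, stood at 271, 270.1, 259 and 210.0 RPKM, with knockout changes of -0.065 and -0.36. Within each group the ratio of Lamp1 to Lamp2 was 0.896, 0.932, 0.275 and 0.444. The 3 nearest measured genes on each side of Lamp1 were Proz, Pcid2, Cul4a, Grtp1, Dcun1d2 and Tmco3, and 0 of these 6 passed the threshold in any of the 4 comparisons. Grtp1 overlaps the end of Lamp1 on the other strand, and whether counting used the strand is not given in the sources used here. The knockout changes of Grtp1 were 0.12 and -0.13. In the annotation 12 of the 36 genes overlap another protein-coding gene. Among them are Ctsa with Pltp and Ctsb with Fdft1, on the other strand, and the same limit holds there. Ctsd with Gm49369, Glb1 with Tmppe and Map1lc3b with Gm20388 overlap on the same strand. Reads shared by those genes cannot be told apart by strand.

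Cd63 encodes a tetraspanin of late endosomes, lysosomes and exosomes and went the other way. It stood at 3.29, 4.40, 6.08 and 15.3 RPKM, and knockout livers on the high-fat diet were well above the other 3 groups. The knockout level was 347% of flox on that diet (log2 change 1.59, with 0.358% of all genes rising as far) and 185% on chow (log2 change 0.72). With the diet it rose in knockout livers (log2 change 1.20) and had a change of 0.33 in flox livers. The difference of the 2 knockout changes was 0.87, below the threshold, and had no test. Scarb2, the receptor that carries glucocerebrosidase to the lysosome, stood at 34.4, 36.6, 35.9 and 35.0 RPKM, the narrowest range of the 35.

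**Figure D2:**
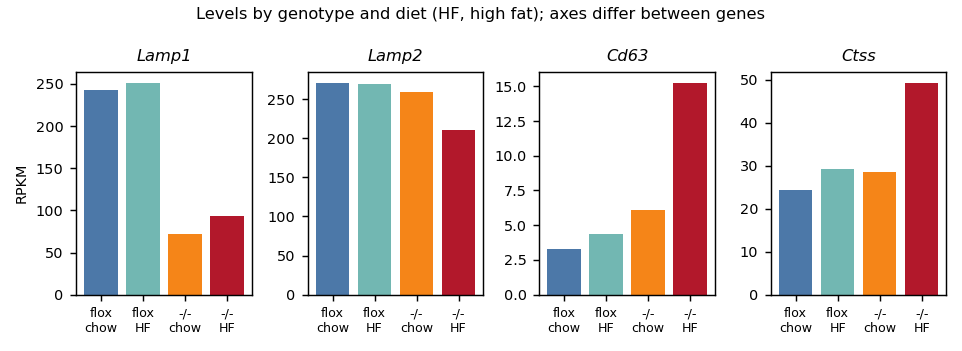
RPKM of Lamp1, Lamp2, Cd63 and Ctss in the 4 groups, 1 deposited value per bar, with a separate axis from 0 for each gene. Lamp1 is at 71.4 and 93.2 RPKM in knockout livers against 243 and 252 RPKM in flox livers, while Cd63 and Ctss are highest in knockout livers on the high-fat diet (15.3 and 49.4 RPKM).

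Cd63 and Ctss are also expressed by macrophages and other non-parenchymal cells. The 18 macrophage markers summed to 306, 347, 306 and 490.5 RPKM, and 0 of them were listed at 0. The resident macrophage marker Clec4f was measured at 32.2, 34.8, 31.6 and 50.7 RPKM. In knockout against flox livers on the high-fat diet 2 of 15 measured macrophage markers rose, where 1.07% of all genes rose. The 2 were Cd9 (log2 change 1.36) and Trem2 (1.29, named after its value was seen). The median of the 15 was 0.40, beside -0.13 for all genes. On chow 0 of 15 rose and the median was -0.00076, beside -0.016 for all genes. Cd9 differed from that median, with a change of 0.95 on chow (9.73, 8.96, 19.8 and 24.6 RPKM in the 4 groups). The 7 cholangiocyte markers summed to 23.6, 25.0, 46.3 and 118 RPKM, led by Spp1, the gene of osteopontin, at 19.7, 20.6, 39.4 and 103 RPKM. The 8 stellate cell markers summed to 103, 102, 128 and 169.8 RPKM, and the 9 endothelial markers to between 93.8 and 102 RPKM. Their part in the values of Cd63 and Ctss was not tested.

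The proteases held the largest summed level of the subclasses, at 829, 810.1, 776 and 802 RPKM, and 0 of 8 passed the threshold in any comparison. Ctss, cathepsin S, which trims the invariant chain of MHC class II in antigen-presenting cells, stood at 24.3, 29.2, 28.5 and 49.4 RPKM. Its highest value was in knockout livers on the high-fat diet, with log2 changes of 0.74 against flox on that diet and 0.77 against knockout chow. Lgmn, legumain, an asparaginyl endopeptidase that processes cathepsins, stood at 21.1, 26.1, 22.6 and 33.2 RPKM. It too was highest in knockout livers on the high-fat diet, and its diet change was 0.30 in flox and 0.54 in knockout livers. Both are genes that macrophages express, and the macrophage sums above apply to them too.

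The cysteine protease Ctsb, cathepsin B, stood at 116, 124, 75.9 and 94.3 RPKM. Both knockout groups were below both flox groups, with log2 changes of -0.60 on chow and -0.39 on the high-fat diet, short of the threshold. Ctsl, cathepsin L, stood at 224, 208, 243 and 249 RPKM, with both knockout groups above both flox groups and knockout changes of 0.12 and 0.26. The aspartyl protease Ctsd, cathepsin D, stood at 119.8, 126, 104 and 126 RPKM, lowest in knockout chow.

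Ctsh, an aminopeptidase, stood at 168, 146, 144 and 114 RPKM, lowest in knockout livers on the high-fat diet. Ctsz, a carboxypeptidase, stood at 114, 115, 121 and 102 RPKM. Ctsa, which protects beta-galactosidase and neuraminidase in a complex, stood at 41.7, 36.7, 36.4 and 33.5 RPKM. The 3 genes lay within a log2 change of 0.35 in every comparison of genotypes.

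The summed level of the 4 glycosidases was below that of the proteases, at 51.5, 57.5, 48.3 and 49.3 RPKM, and 0 of 4 passed the threshold. Gaa, the acid alpha-glucosidase that breaks down lysosomal glycogen, stood at 22.1, 22.9, 18.3 and 15.9 RPKM. Both knockout groups were below both flox groups, with log2 changes of -0.26 and -0.50. Hexa, the alpha subunit of hexosaminidase A, stood at 18.6, 22.9, 19.3 and 23.3 RPKM, higher on the high-fat diet in both genotypes (log2 changes of 0.29 and 0.26).

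Gusb, beta-glucuronidase, stood at 9.10, 10.4, 8.95 and 8.61 RPKM. Gla, alpha-galactosidase A, was the lowest of the 35 genes at 1.71, 1.38, 1.82 and 1.47 RPKM. The entry that joins Glb1, beta-galactosidase, with Tmppe stood at 6.23, 6.81, 6.02 and 5.46 RPKM. These levels differed little between the groups, and none of these genes passed the threshold.

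Of the genes of lipid handling, 0 of 6 passed the threshold in any comparison. Lipa, the acid lipase that hydrolyses cholesteryl esters and triglycerides in the lysosome, stood at 57.1, 83.6, 58.3 and 70.5 RPKM. It was higher on the high-fat diet in both genotypes, by 0.54 in flox livers, where 1.55% of all genes rose as far, and by 0.27 in knockout livers. Asah1, acid ceramidase, stood at 22.4, 14.9, 20.4 and 21.6 RPKM, with flox high fat apart on the low side. Its diet change was -0.56 in flox and 0.076 in knockout livers, a difference of 0.63 that had no test.

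Npc1 and Npc2 pass cholesterol out of the lysosome in sequence. Npc1 stood at 24.3, 29.9, 23.1 and 23.4 RPKM, with a diet change of 0.29 in flox and 0.015 in knockout livers. Npc2 stood at 23.6, 18.2, 18.6 and 20.5 RPKM, with a diet change of -0.36 in flox and 0.13 in knockout livers. The diet changes of these partners in flox livers had opposite signs, both short of the threshold.

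Smpd1, acid sphingomyelinase, stood at 18.3, 16.3, 13.5 and 11.1 RPKM. Both knockout groups were below both flox groups, with log2 changes of -0.41 and -0.51. Psap, the precursor of the saposins that activate sphingolipid hydrolases, stood at 163, 183, 145 and 159.7 RPKM. Grn, progranulin, a lysosomal and secreted glycoprotein that binds prosaposin, stood at 67.0, 65.2, 58.9 and 73.3 RPKM, with knockout changes of -0.18 on chow and 0.17 on the high-fat diet.

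**Figure D3:**
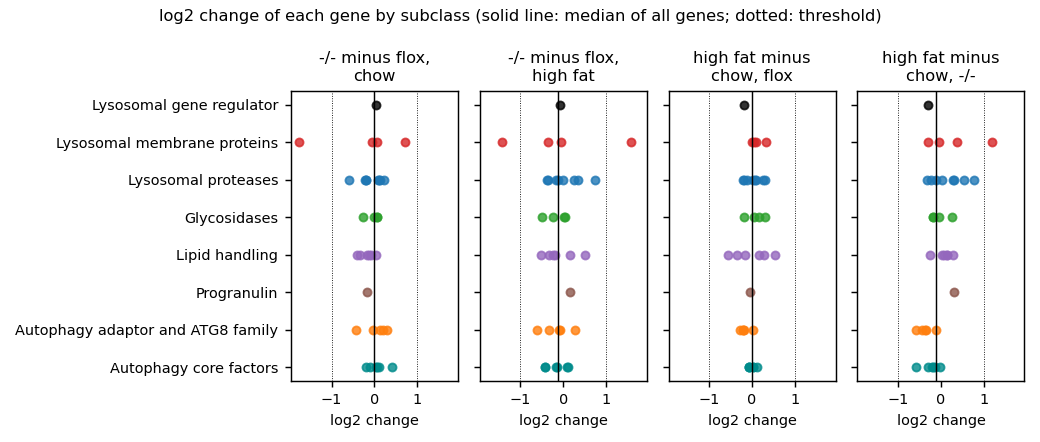
log2 change of each of the 35 genes by subclass in 4 comparisons, with the median of all genes as a solid line and the threshold of 1 as dotted lines. Outside the dotted lines lie Lamp1 in both genotype comparisons (-1.75 and -1.42) and Cd63 on the high-fat diet against flox (1.59) and against knockout chow (1.20).

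Among autophagy genes, 0 of 5 adaptor and ATG8 family genes and 0 of 6 core factors passed the threshold in any comparison. Sqstm1, which encodes p62, the adaptor that links ubiquitinated cargo to ATG8 proteins and binds the NRF2 inhibitor KEAP1, stood at 155, 134, 179 and 164 RPKM. Both knockout groups were above both flox groups, with log2 changes of 0.21 and 0.28. NRF2 target genes include Sqstm1 in other settings. On the high-fat diet 5 of 12 listed NRF2 targets rose in knockout livers, where 1.07% of all genes rose. The largest changes were those of Gstm3 (4.24), Gsta1 (3.97) and Cbr3 (3.20). On chow 0 of the 12 NRF2 targets rose in knockout livers (median 0.13). Their part in the values of Sqstm1 was not tested.

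Gabarap was the most abundant of the 4 ATG8 family genes in every group, at 249.7, 218, 185 and 143 RPKM. Both knockout groups were below both flox groups, with log2 changes of -0.43 and -0.60. Its paralogue Gabarapl1 stood at 161, 164, 176 and 129.9 RPKM, so that the ratio of Gabarap to Gabarapl1 went from 1.55 and 1.33 in flox to 1.05 and 1.10 in knockout livers. Map1lc3b, which encodes LC3B, the usual marker of autophagosomes, stood at 75.3, 62.0, 74.1 and 57.8 RPKM. It was lower on the high-fat diet in both genotypes (log2 changes of -0.28 and -0.35), and its knockout changes were -0.023 and -0.10. Map1lc3a, which encodes LC3A, stood at 43.5, 37.5, 53.7 and 35.4 RPKM, with diet changes of -0.21 in flox and -0.59 in knockout livers. Reads of such related copies may be split between genes, depending on counting that is not given in the sources used here. RNA levels do not measure the lipid-linked proteins or autophagic flux.

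Of the core factors, Ulk1, the kinase that starts autophagy, stood at 14.4, 15.8, 19.4 and 17.0 RPKM. Its knockout change was 0.41 on chow, where 2.61% of all genes rose as far, and 0.10 on the high-fat diet. Becn1, beclin 1 of the lipid kinase complex that nucleates the membrane, stood at 17.8, 18.0, 18.4 and 15.8 RPKM. Wipi1, which reads the lipid made by that kinase, stood at 6.00, 5.62, 5.55 and 4.98 RPKM. These 2 differed little between the groups.

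The remaining core factors attach ATG8 proteins to lipid. Atg7, the activating enzyme, stood at 11.4, 10.8, 12.0 and 7.73 RPKM, with knockout livers on the high-fat diet apart on the low side (-0.43 against flox and -0.58 against knockout chow). Atg5 stood at 18.8, 17.7, 16.2 and 12.9 RPKM, with its lowest level in the same group. Atg12, the ubiquitin-like partner of Atg5, stood at 11.1, 11.2, 12.1 and 12.0 RPKM, with no such low value. In knockout livers all 6 core factors had diet changes below 0 (median -0.19, beside -0.11 for all genes). Among all genes that reached 5 RPKM in any group the median was -0.21, so the gap depends on the filter. Only 4 of 6 were below 0 once the groups were rescaled to a median log2 ratio of 0, and 2 of 6 when rescaled without the 50 most abundant genes.

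**Figure D4:**
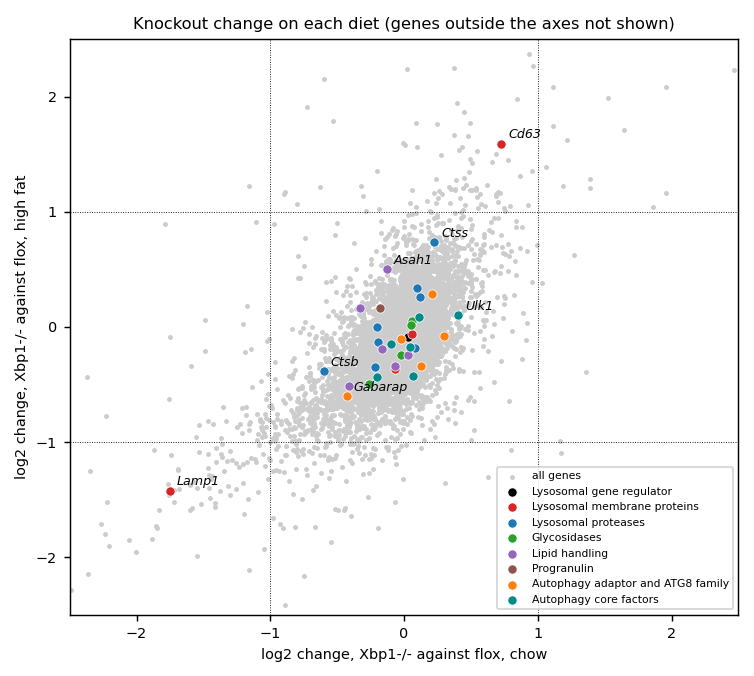
log2 change of knockout against flox on chow (horizontal) and on the high-fat diet (vertical), with all genes in grey and the 35 lysosomal and autophagy genes coloured by subclass. Lamp1 lies past the dotted threshold on both axes (-1.75 and -1.42), Cd63 on the vertical axis alone (0.72 and 1.59), and the other 33 lie within -0.60 to 0.41 on the horizontal and -0.60 to 0.74 on the vertical axis.

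The knockout changes on the 2 diets share no group. Across the 35 genes they had a Pearson correlation of 0.75 and a Spearman correlation of 0.60, and without Lamp1 and Cd63 the values over 33 genes were 0.48 and 0.52. Across all 10319 genes they were 0.61 and 0.55. The sign was the same on both diets for 23 of 35 genes (65.7%) and for 67.6% of all genes. Genes of 1 group share the group's libraries and are not replicates.

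Other genes of these pathways were followed by lists. Of 30 other lysosomal hydrolases, 28 were measured. On chow 2 fell and 0 rose in knockout livers, where 1.37% of all genes fell and 0.252% rose. The median of the 28 was -0.15 on chow, beside -0.016 for all genes and -0.047 for genes that reached 5 RPKM. The 2 that fell were Gm2a, the activator of GM2 ganglioside breakdown, at 30.8, 18.9, 13.4 and 16.4 RPKM (log2 change -1.14), and Tpp1, tripeptidyl peptidase, at 28.0, 28.0, 12.5 and 16.2 RPKM (-1.10). On the high-fat diet 0 of 28 passed the threshold, with Tpp1 (-0.76), Fuca1 (-0.73) and Naglu (-0.72) the furthest from 0. The median of the 28 was then -0.22, beside -0.13 for all genes and -0.22 for genes that reached 5 RPKM. Among 6 genes for sorting of lysosomal enzymes, 1 fell on chow, Igf2r, the large mannose 6-phosphate receptor (3.66 to 1.21 RPKM, log2 change -1.08, named after its value was seen). These counts on chow are too small to be read against the share of all genes that fell. After rescaling without the 50 most abundant genes none of Gm2a, Tpp1 and Igf2r passed the threshold. Of 16 subunits of the vacuolar ATPase, which acidifies the lysosome, 12 other lysosomal membrane proteins and 24 other autophagy factors, 0 passed the threshold in any comparison. The median of the 24 autophagy factors in knockout against flox livers on the high-fat diet was -0.30, beside -0.13 for all genes. Among all genes that reached 5 RPKM in any group that median was -0.22.

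The transcription factors ATF4 and CHOP act in the integrated stress response. On the high-fat diet 6 of 11 measured genes of their list rose and 1 fell in knockout livers. Of all genes 1.07% rose and 1.86% fell. On chow 2 of the 11 rose and 0 fell, where 0.252% of all genes rose and 1.37% fell. The largest changes on the high-fat diet were those of Asns (2.74), Nupr1 and Ddit3 (1.67). Asns also rose on chow (3.17). It stood at 4.02, 1.82, 44.0 and 17.9 RPKM, and Nupr1 at 0.590, 1.16, 1.09 and 7.34 RPKM. Ddit3, the gene of CHOP, stood at 4.23, 4.99, 5.78 and 18.0 RPKM. The 4 values of Atf4 were 41.5, 32.0, 38.3 and 32.0 RPKM. In knockout against flox livers on the high-fat diet the 5 adaptor and ATG8 family genes had log2 changes from -0.60 to 0.28 (median -0.10). The 6 core factors ranged from -0.43 to 0.10 (median -0.16), and the median of all genes was -0.13. A part of ATF4 or CHOP in these values was not tested.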

How the data were processed

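RNA was sequenced from 8 pooled liver libraries in 4 groups. The deposited files give RPKM, per the file headers, as 1 value per gene and group. Per the submitters' processing notes, the tools were TopHat2 2.0.7 and Cuffdiff 2.1.1 and the build mm10. The annotation, the scaling and how libraries were combined: not given in the sources used here. Files were assigned to groups by the part of their names shared with sample titles. Low RPKM values times transcript length did not give whole reads: at the best-matching of the step sizes tried, between 16.8% and 20.9% of values lay within 0.05 of a whole number (an even spread gives 10.0% at any 1 step size), so reads were not recovered and depth is unknown.

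Rows of 1 symbol were summed, genes that reached 1 RPKM in any group were kept, and a gene at 0 in a group was left out of comparisons with it. The pseudocount was 1 RPKM, which understates changes of low genes. With 1 value per group no test was possible, and a log2 change of 1 set the calls. All 35 genes are named; of each other list, up to 3 genes with the largest change and at least 5 RPKM. Members and lists were chosen with earlier results of these data known. Gene coordinates are from GENCODE M21 (GRCm38, the assembly of mm10) and promoters from RefSeq (GRCm38.p6). The scripts ran in Python 3.11.15 (pandas 2.3.3, numpy 2.4.6, figures in matplotlib 3.10.9) and were tested on simulated data. Alternatives were pseudocounts of 0.1 and 5 RPKM, no filter, a filter of 5 RPKM, a 1.5-fold threshold, the highest of repeated rows and 2 rescalings; counting the joined Glb1 entry was added after the data were seen.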

Additional observations from a re-analysis of the deposited data

How the results depend on the processing

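Lamp1 fell in knockout livers on both diets under every alternative tried, with log2 changes from -1.76 to -1.60 on chow and from -1.43 to -1.12 on the high-fat diet. Cd63 rose on the high-fat diet against flox under every alternative (1.11 to 1.88), and its rise with diet in knockout livers was below the threshold with a pseudocount of 5 RPKM, which left 0 genes rising there. At 1.5-fold, 1 rose (Cd63) and 2 fell (Lamp1 and Ctsb) on chow, 2 rose (Cd63 and Ctss) and 2 fell (Lamp1 and Gabarap) on the high-fat diet, and with diet in knockout livers 2 rose (Cd63 and Ctss) and 1 fell (Map1lc3a). At 1.5-fold the difference of the knockout changes called 2 genes on the high side, Cd63 and Asah1. The filter of 5 RPKM kept 33 of the 35 genes and left the calls as they were. With it the median in knockout against flox livers on the high-fat diet was -0.15, beside -0.22 for all genes kept. With diet in knockout livers it was -0.049, beside -0.21. Rescaling to a median log2 ratio of 0 turned the median of the 35 genes positive in both genotype comparisons (0.016 on chow, 0.048 on high fat), in knockout livers with diet (0.045) and in the difference of knockout changes (0.066, with 1 gene, Cd63 at 1.01, past the threshold). Rescaling without the 50 most abundant genes gave 0.12, 0.14, 0.17 and 0.078 for the same medians and 0.13 with diet in flox livers. It added Ctss, for 2 rises on the high-fat diet (1.04) and 2 with diet in knockout livers (1.06), and put 1 gene, Cd63, past the threshold in the difference (1.04). Shares of all genes were not computed at 1.5-fold or after rescaling, so the counts given here for those settings cannot be read against a background. Under these rescalings the median of all genes moved alike, so signs of changes near 0 depend on the scaling. No paired analysis was possible because the files used here hold 1 value per group, and leaving out a replicate could not be run for the same reason. Depth is unknown, which limits low genes such as Gla and Tfeb most.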

Other observations

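Bloc1s1, a neighbour of Cd63 on chromosome 10, was singled out after its values were seen. It encodes a subunit shared by the BLOC-1 complex of lysosome-related organelles and the BORC complex that positions lysosomes, and its messenger RNA is an established substrate of cleavage by IRE1. It stood at 76.5, 87.8, 18.3 and 21.8 RPKM in the order of groups used above, and fell in knockout livers on chow (log2 change -2.00) and on the high-fat diet (-1.96). Both knockout groups lay far below both flox groups, as for Lamp1, with no replicate check. Cleavage by IRE1 was not measured, and its part in the values of either gene was not tested. The other 5 of the 6 genes nearest to Cd63 did not pass the threshold in any of the 4 comparisons.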
